A study of Mus musculus with 5 samples.

Results

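Clustered NKX2-1 regions are described here: 3724 genomic regions that lie in 478 chains of close neighbours, chosen from the 31606 regions at which all 4 antibodies gave a peak. The choice was made in 3 steps. Peaks of the 4 lists were merged where they shared at least 1 bp, which gave 68919 regions, and the 31606 regions with a peak of every antibody were kept. Neighbours on a chromosome were then linked where the gap between them was at most 12.5 kb, and regions in chains of 6 or more were retained as members (11.8% of the regions with all 4 antibodies). The chains were therefore picked by spacing and by the number of peaks, so their size and spacing are given as descriptions only.

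NKX2-1 was mapped by chromatin immunoprecipitation and sequencing (ChIP-seq) in wild-type mice, using whole lung of postnatal day 10. The 5 libraries are 1 input and 4 immunoprecipitations with different NKX2-1 antibodies. Of these Abcam133737 and Abcam76013 gave the shorter peak lists and Millipore07-601 and Abcam133638 the longer ones. The input is the library against which the authors called the peaks of every antibody. Each antibody has 1 library, and the labels' protocol pools the sonicated chromatin of several tubes. Whether all 4 antibodies used the same pool, and how many mice were pooled, is not stated. There is thus no replicate error, and the 4 values given for a region below are 4 antibodies and are not treated as 4 animals.

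NKX2-1 is a homeodomain transcription factor that is needed for lung formation and stays on in the lung epithelium. In the alveoli it is found both in type 1 (AT1) cells, the thin cells across which gas is exchanged, and in type 2 (AT2) cells, which make surfactant. Genes that define a cell type often have many binding regions of the cell's main transcription factors spread along them, and such stretches are a familiar feature of genes for lineage factors and abundant products. Whole lung mixes AT1, AT2, airway and other cells, so which cells a region was bound in cannot be told apart here. Peak lists hold no expression values, so the labelled tissue could not be checked against marker levels.

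Several chains run over the start of a gene named below, and the 250 bases before those starts show what sequence lies under the clustered peaks. They are printed 5′ to 3′ on the gene's strand, from RefSeq for build GRCm38.p6. The order is that of the mean pileup of the region over the start, except that Sftpb stands last. Capitals mark matches on either strand to CTCAAG and CAAGTG, 2 short sequences related to those that NKX2-1 is known to bind, which share letters and can overlap but do not do so in these windows. Amotl2 (chr9:102717554-102717803, plus strand) encodes a member of the angiomotin family, Cldn18 (chr9:99710064-99710313, minus strand) a tight junction protein of AT1 cells, Cldn3 (chr5:134985964-134986213, plus strand) another claudin and Jup (chr11:100397791-100398040, minus strand) the junction protein plakoglobin. Foxa2 (chr2:148045949-148046198, minus strand) and Nkx2-1 (chr12:56536909-56537158, minus strand) encode lung epithelial transcription factors. Sftpb (chr6:72304360-72304609, plus strand), the gene of surfactant protein B, was added after its values were seen because it is a textbook target of NKX2-1.
Amotl2: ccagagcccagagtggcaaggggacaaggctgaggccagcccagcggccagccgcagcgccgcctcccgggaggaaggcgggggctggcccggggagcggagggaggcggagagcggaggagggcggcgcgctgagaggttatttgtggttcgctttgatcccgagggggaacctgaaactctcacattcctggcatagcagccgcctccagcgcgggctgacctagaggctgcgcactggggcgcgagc
Cldn18: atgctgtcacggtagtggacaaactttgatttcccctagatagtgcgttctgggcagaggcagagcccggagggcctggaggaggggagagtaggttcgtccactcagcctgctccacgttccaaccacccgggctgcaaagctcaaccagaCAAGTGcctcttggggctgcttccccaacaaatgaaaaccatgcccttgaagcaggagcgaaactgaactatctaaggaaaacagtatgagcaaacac
Cldn3: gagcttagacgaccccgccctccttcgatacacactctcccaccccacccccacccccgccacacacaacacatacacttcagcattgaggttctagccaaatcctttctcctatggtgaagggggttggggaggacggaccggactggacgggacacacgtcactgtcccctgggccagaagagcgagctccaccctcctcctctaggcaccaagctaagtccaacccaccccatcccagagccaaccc
Jup: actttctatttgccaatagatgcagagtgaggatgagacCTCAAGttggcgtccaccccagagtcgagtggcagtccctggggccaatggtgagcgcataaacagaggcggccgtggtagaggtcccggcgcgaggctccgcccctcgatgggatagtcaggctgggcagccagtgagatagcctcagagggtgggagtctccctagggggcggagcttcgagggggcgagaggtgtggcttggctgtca
Foxa2: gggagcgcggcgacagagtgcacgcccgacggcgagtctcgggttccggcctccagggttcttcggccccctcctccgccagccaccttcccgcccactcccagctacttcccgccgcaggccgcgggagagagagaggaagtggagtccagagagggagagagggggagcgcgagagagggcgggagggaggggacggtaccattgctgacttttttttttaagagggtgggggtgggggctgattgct
Nkx2-1: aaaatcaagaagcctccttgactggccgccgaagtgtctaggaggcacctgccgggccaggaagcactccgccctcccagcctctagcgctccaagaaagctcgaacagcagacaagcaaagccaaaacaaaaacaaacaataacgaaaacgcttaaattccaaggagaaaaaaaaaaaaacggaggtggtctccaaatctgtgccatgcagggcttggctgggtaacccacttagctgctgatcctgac
Sftpb: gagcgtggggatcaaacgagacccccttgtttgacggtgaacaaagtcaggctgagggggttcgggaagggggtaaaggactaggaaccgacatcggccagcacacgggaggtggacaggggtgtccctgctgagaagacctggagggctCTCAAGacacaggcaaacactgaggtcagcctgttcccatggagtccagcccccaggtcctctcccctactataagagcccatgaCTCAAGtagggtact
The Sftpb window holds CTCAAG at 100 and again at 15 bases before the start, both on the gene's strand. In Cldn18 the match is CAAGTG at 98 bases and in Jup it is CTCAAG at 211 bases before the start. The windows of Amotl2, Cldn3, Foxa2 and Nkx2-1 hold neither set of letters, which says nothing about other forms of the site or about sites elsewhere under the peaks.

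Each of the 7 starts lay in a peak of all 4 antibodies, with a mean fold from 27.1 at Sftpb down to 10.1 at Jup. The starts of Cbr2 and Eef2 had mean folds of 7.63 and 7.81 and were not printed. They come next in order among the list genes chosen for full values, not among all list genes. The window of Eef2, a housekeeping gene, held CAAGTG at 138 bases before the start, and that of Cbr2 held neither motif. Other list genes with a start in a chain region were Etv5, Rfx2, Icam1, Muc1, Krt8, Cebpa, Timp3, Krt18 and Lcn2. Their windows held neither motif, so the matches in the printed windows do not stand for the lists. Among them Muc1, Krt8 and Cebpa had mean folds of 22.6, 17.5 and 12.5, above several of the printed starts. At Sftpb the fold enrichment, the pileup over the local background, was 24.7 with Abcam133737, 31.9 with Millipore07-601, 22.3 with Abcam76013 and 29.3 with Abcam133638, and 4 values without names below keep this order of antibodies. At Cldn18 it was 15.0, 22.2, 16.6 and 24.1, and at Amotl2 16.6, 21.2, 15.9 and 21.3. The Nkx2-1 start gave 8.03, 12.3, 8.32 and 12.1. In each of these 4 regions Millipore07-601 and Abcam133638 were the higher pair and the 2 other antibodies the lower pair. At Cldn3 the order was another one, with 13.4, 14.0, 9.70 and 11.5, and Abcam133737 stood above Abcam133638.

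The share of windows with a match under chains was close to that elsewhere. Among 21263 RefSeq promoter windows of protein-coding genes, 22% held either motif. Of the 396 windows whose start lay in a region of a chain, which belong to 355 genes in 233 chains, 87 held one (22.0%, exact 95% interval 18 to 26.4). Of the 5306 windows with a start in another region of all 4 antibodies, 1211 did (22.8%). The intervals given here and below are Clopper-Pearson intervals and cover counting error only.

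In 19 chains there was a gene for a microRNA, a short regulatory RNA that acts through its bases 2 to 8, the seed, which is in capitals below. The 2 chains shown were chosen after their values were seen, because their microRNAs are well known in epithelium and connective tissue. In all, 22 of 1228 microRNA genes overlapped a chain (1.79%). The mature sequences are from RefSeq, and both clusters lie on the minus strand of chromosome 6 (chr6:124717917-124717938 for miR-141-3p, chr6:124718324-124718346 for miR-200c-3p, chr6:31062673-31062694 for miR-29a-3p and chr6:31063025-31063047 for miR-29b-3p).
miR-141-3p: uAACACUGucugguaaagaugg
miR-200c-3p: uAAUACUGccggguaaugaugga
miR-29a-3p: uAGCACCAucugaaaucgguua
miR-29b-3p: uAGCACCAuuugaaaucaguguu
The miR-29 pair shares its seed, while miR-141 and miR-200c have seeds that differ. Mir200c and Mir141, whose products hold back the repressors of E-cadherin, lie at the end of a chain of 7 regions (chr6:124682440-124719319) that also overlaps Lpcat3, Emg1 and Phb2. The region nearest to Mir200c had its summit 0.547 kb away, with folds of 7.26, 5.29, 4.32 and 9.61. Mir29a and Mir29b-1, whose products act on collagen transcripts, lie in a chain of 8 regions with no protein-coding gene (chr6:31061828-31092705). There the nearest region, 0.6 kb from Mir29a, had folds of 3.71, 6.77, 3.86 and 5.39, low beside the strongest region of the chain at a mean fold of 23.5.

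Most regions of all 4 antibodies were not clustered. No neighbour stood within the gap at 11923 of them (37.7%), and chains of 5 numbered 312. Of the 478 chains, 172 had 6 regions, 292 had 6 or 7, and 83 had 10 or more, the latter holding 987 regions. A chain had 6 to 21 regions with a median of 7 and spanned 6.46 to 95.4 kb with a median of 29.3 kb. The spans sum to 14.9 Mb, 0.796% of the effective genome size that the authors used, and the members cover 1.89 Mb of it.

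**Figure D1:**
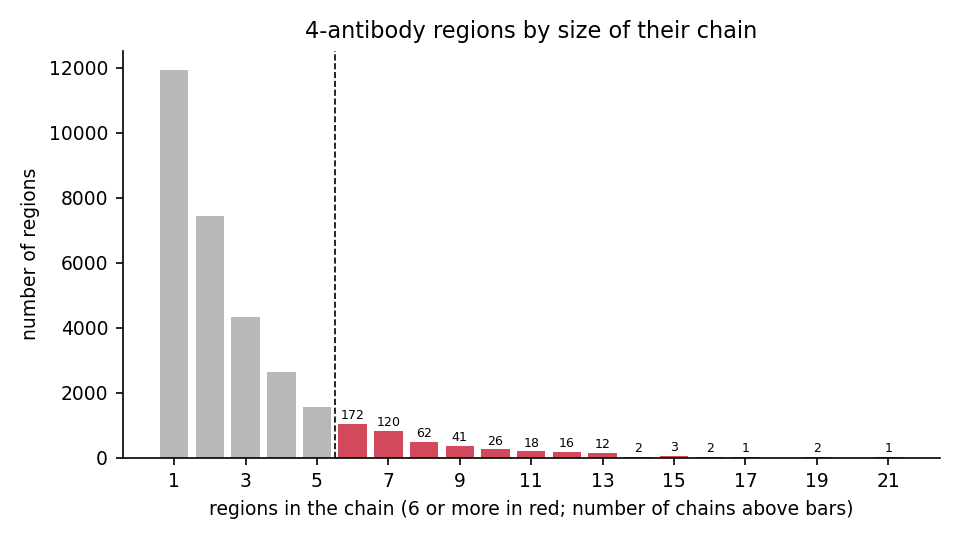
Number of regions with a peak of all 4 antibodies (vertical axis) by the number of regions in their chain (horizontal axis), with chains of 6 or more in red and their number above the bars. Regions without a neighbour number 11923, and the 478 chains to the right of the dashed line hold 3724.

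Spacing within chains was loose. The median gap between neighbouring members was 3.06 kb, and 834 of the 3246 gaps (25.7%) were under 1 kb. Peaks covered a median of 12.9% of a chain's span, and the density had a median of 2.53 regions per 10 kb with a range of 1.05 to 9.28. The densest chain lies inside Tnrc18 (chr5:142815584-142822047), where 6 regions fall within 6.46 kb.

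The limits of the rule cut through a continuum. The widest gap inside a chain was 12496 bp and the narrowest gap that ended one was 12529 bp. Within 0.5 kb of the limit lay 49 inside gaps and 17 ending gaps. Chains of 5, just outside, had a median span of 18.9 kb, a median summed pileup of 5.04 tags per 1000000 filtered tags (scaled tags below) and a median fold of 14.9 at their strongest region. Chains of 6, just inside, had 22.6 kb, 6.26 scaled tags and 16.5. These values tend to rise with the number of regions alone. The median over chains of a chain's own median fold was 7.47 for chains of 5 and 7.63 for chains of 6.

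The pileup is the height of a peak in tags, here given as scaled tags, that is per 1000000 filtered tags of the library (which had 43031331 to 46547989), and it was summed over the regions of a chain. Averaged over the 4 antibodies, this sum ran from 3.75 to 57.6 scaled tags with a median of 7.75. By antibody the median over chains was 6.43 (Abcam133737), 9.60 (Millipore07-601), 6.46 (Abcam76013) or 8.62 (Abcam133638). The 2 antibodies with the longer peak lists (57763 and 57891 peaks) gave the higher sums, and those with 40877 and 41296 peaks the lower ones.

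Signal in a chain was uneven. The strongest region held a median of 26.3% of the chain's summed pileup (8.24% to 54.2%). That strongest region had a median fold of 18.4, while the median over chains of a chain's own median fold was 7.47 and that of its weakest region was 4.65. It lay inside a gene in 264 chains (55.2%), outside genes in 139 (29.1%) and within 1 kb of a gene end in 75 (15.7%). These shares were close to those of all members, at 54.6%, 27.9% and 17.5%. The highest single value belonged to Slc26a9, a chloride transporter gene of epithelia, at chr1:131763872-131765115 inside the gene, with folds of 46.1, 60.3, 42.6 and 55.2.

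Member regions were close in strength to the other regions of all 4 antibodies. Their median fold was 6.18 against 5.97 for the other regions with Abcam133737, 8.73 against 8.46 with Millipore07-601, 6.15 against 5.97 with Abcam76013 and 8.62 against 8.19 with Abcam133638. The ratio of medians was 1.03, 1.03, 1.03 and 1.05, so the higher value was on the side of the members with each antibody, by a few percent. The mean of these 4 ratios was 1.04 (SD over antibodies 0.0101). For the mean fold over antibodies the medians were 7.40 and 7.12, and regions without any neighbour had 6.93. Members were also longer, with a median of 445 bp against 404 bp. By chain size the median fold went from 6.93 for single regions to 7.56 in chains of 4 and 7.51 in chains of 6, and above that it went up and down (7.30 in chains of 7, 7.85 in chains of 8, 7.70 in chains of 9 and 7.29 in chains of 10).

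The share of very strong regions differed more than the median. With 10% of all regions of 4 antibodies called strong (a mean fold of at least 15.3), 501 of the 3724 members were strong (13.5%, interval 12.4 to 14.6), and 2660 of the 27882 others (9.54%, 9.20 to 9.89). They were spread over many chains: 159 chains had none, 184 had 1 and 135 had 2 or more, with at most 4 in a chain. Most chains thus had few strong regions among weaker ones.

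The antibodies ranked the chains much alike. The Spearman correlation of pileup per region over the 478 chains was 0.947 to 0.959 for the pairs of antibodies. These were used on closely related chromatin, and their peaks were called against the same input. Millipore07-601 gave the highest scaled pileup at 65.6% of the members and Abcam133638 at 30.9%, while Abcam76013 and Abcam133737 did so at 1.99% and 1.53%. Outside the chains these shares were 65.5%, 31.7%, 1.56% and 1.30%.

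Peaks that only some antibodies called were also found between the members. Inside the chains' spans lay 743 of the 17395 regions with 1 antibody (4.27%), 488 of the 10634 with 2 (4.59%) and 388 of the 9284 with 3 (4.18%), and 436 of the 478 chains had at least 1 such region. Per Mb of span between members this comes to 57.1, 37.5 and 29.8 regions. In chains of 2 to 5 the same densities were 37.0, 21.9 and 19.6, lower for each number of antibodies. These regions were not used by the rule, but chains hold no gap over 12.5 kb and the densities were not tested.

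Members lay inside genes more often, and at gene ends less often, than the other regions. A summit was within 1 kb of a gene end at 652 members (17.5%, interval 16.3 to 18.8), against 23.1% of the others and 22.5% of all regions with 4 antibodies. It was inside a gene at 54.6% of members and 46.1% of the others, and outside genes at 27.9% and 30.7%. The median distance to the nearest gene end was 8.12 kb for members and 11.2 kb for the others.

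Chains related to genes in several ways. A chain lay wholly inside 1 protein-coding gene in 109 cases (22.8%), overlapped 1 gene in part in 153, overlapped 2 or more in 165 and held no protein-coding gene in 51 (10.7%). At least 1 whole gene lay within the span of 156 chains. Of the 51 chains without a protein-coding gene, 37 overlapped a gene for a long noncoding RNA. Chains over protein-coding genes, such as those at Mapkapk2, Myo1e, Sdc1 and Hes1, also overlapped such genes. The share of chains over protein-coding genes that did so was not counted. The 37 of 51 thus have no background beside them, and whether they are more than elsewhere cannot be said. In all, 779 of 21779 protein-coding genes overlapped a chain (3.58%), and of the 12719 genes with a region of 4 antibodies within 10 kb it was 6.12%. Genes in chains had a median length of 17.4 kb, close to 17.2 kb for all genes and below 23.9 kb for those with such a region nearby.

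The chromosomes held unequal shares of members. Chromosome 19 had the highest share, 177 of its 1053 regions (16.8%), followed by 12 (15.0%), 9 and 11 (14.9% each). Chromosome 14 had 5.42%, and on the X only 6 of 374 regions (1.60%) were members, in 1 chain without a protein-coding gene (chrX:140505671-140538100).

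Genes of AT2 cells were the list with the largest share in chains. Of 30 AT2 genes, 12 overlapped a chain (40%, interval 22.7 to 59.4), in 11 chains, beside 3.58% of all genes. They are Sftpc, Sftpb and Sftpd, which encode surfactant proteins, Napsa and Ctsh, which encode proteases that process surfactant proteins, Lpcat1, Lgi3, Muc1, Cebpa, Etv5, Lcn2 and Dram1. A region of 4 antibodies lay within 10 kb of 28 of the 30, beside 12719 of all 21779 genes. Of 30 AT1 genes, 7 overlapped a chain (23.3%, 9.93 to 42.3): Icam1, Akap5, Cldn18, Ahnak, Emp2, Clic5 and Timp3. The AT1 and AT2 intervals overlap, and the difference between the lists was not tested. The lists were made with earlier results of these data known and share genes, so their counts are a description.

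**Figure D2:**
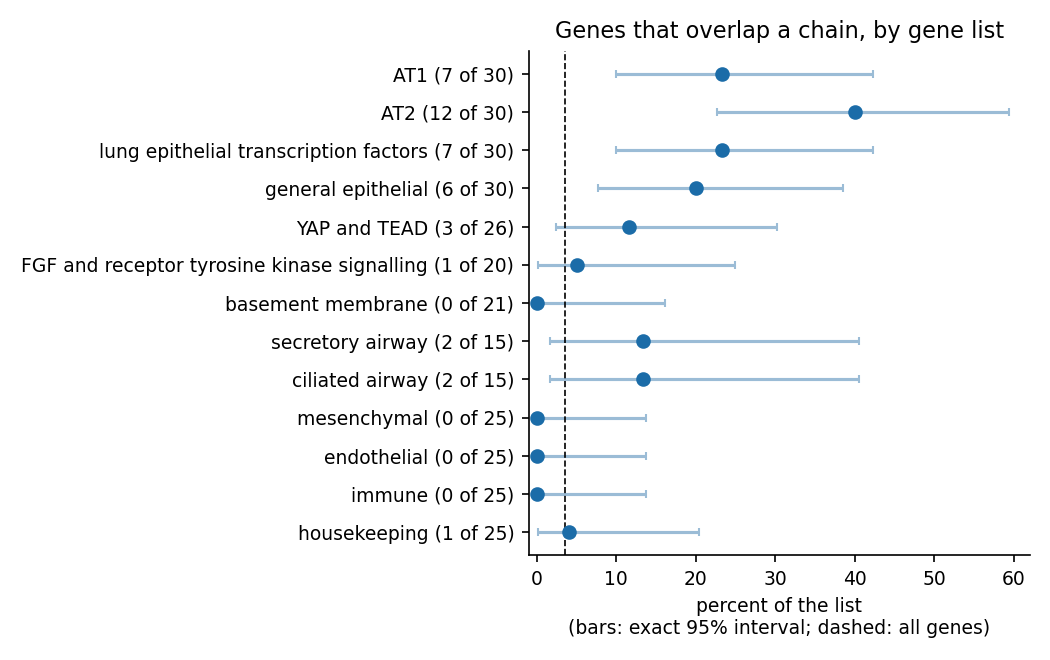
Percent of the genes of each of the 13 lists that overlap a chain (horizontal axis), with exact 95% binomial intervals as bars and the share of all protein-coding genes, 3.58%, as a dashed line. AT2 genes are highest at 40%, and no basement membrane, mesenchymal, endothelial or immune gene overlapped a chain.

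The other epithelial and pathway lists had shares from 5% to 23.3%, and the intervals of the YAP and TEAD, secretory, ciliated and FGF lists include the 3.58% of all genes. Among 30 lung epithelial transcription factors 7 were in chains (23.3%), namely Elf5, Foxa2, Nkx2-1, Irx1, Irx5 and, shared with the AT2 list, Cebpa and Etv5, although all 30 had a region within 10 kb. Among 30 general epithelial genes 6 were (20%), Cldn3, Cdh1, Jup, Prss8 and the keratin pair Krt8 and Krt18 in a single chain. Of 26 genes of the YAP and TEAD pathway, which relays cell shape and density to transcription, 3 were in chains: Vgll4, Wwc1 and Amotl2. Secretory airway genes gave 2 of 15 (Cbr2 and Lypd2) and ciliated genes 2 of 15 (Rfx2 and Mcidas). FGF and receptor tyrosine kinase genes gave 1 of 20, Etv5 again. Within 10 kb of a chain were 3 of the 15 secretory and 2 of the 20 FGF genes, beside 4.31% of all genes. The chain at the AT1 gene Ahnak ends 0.907 kb from Scgb1a1, a gene of the secretory list. Its strongest region, at a mean fold of 19.7, lies outside genes and 2.142 kb from Scgb1a1, the nearest gene.

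None of the 25 mesenchymal, 25 endothelial or 25 immune genes of the lists overlapped a chain. Each of these counts allows a share of up to 13.7%, which includes the 3.58% of all genes, so it cannot be told from the background at this list size. Within 10 kb of a chain were 2 immune genes, beside 4.31% of all genes. None of 21 basement membrane genes overlapped a chain either. The upper limit of 16.1% again includes the 3.58% of all genes, and also the 6.12% of genes with a region nearby. A region of 4 antibodies lay within 10 kb of 18 of them, and their median length was 114 kb. Housekeeping genes gave 1 of 25 (4%), Eef2, which encodes an elongation factor, close to the share of all genes. A region lay within 10 kb of 22 of these 25. A region within 10 kb was found for 10 of the mesenchymal, 14 of the endothelial and 8 of the immune genes. Of all 21779 protein-coding genes 12719 had one.

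Sftpc, which encodes surfactant protein C, lies in one of the strongest AT2 chains (chr14:70513976-70549567, 12 regions over 35.6 kb, with Bmp1, Lgi3 and Reep4). Its summed pileup was 12.5 scaled tags with Abcam133737, 17.7 with Millipore07-601, 12.7 with Abcam76013 and 16.5 with Abcam133638. In this chain 3 adjacent regions stood above the other 9. The region over one end of Sftpc (chr14:70523625-70524827) had folds of 17.9, 19.8, 16.2 and 21.7. The next, between Sftpc and Lgi3, had 24.4, 33.3, 26.3 and 32.7, and the tallest, inside Lgi3 (chr14:70529684-70531106), had 27.0, 42.9, 31.5 and 37.5. The mean folds of the 9 remaining regions ran from 4.77 to 10.7.

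Lpcat1, an enzyme that makes the main lipid of surfactant, has the AT2 chain with the most regions (13, chr13:73425894-73472822). Of its regions 11 lie outside genes, all on the same side of it, and 2 inside Lpcat1. Folds at the strongest, chr13:73453098-73454341, were 26.8, 43.6, 30.7 and 32.8, at a distance of 13249 bp from the gene. Another pair of regions in the same stretch reached mean folds of 22.8 and 22.7, whereas those inside the gene had 6.23 and 4.35. The tall peaks of this chain thus lie outside the gene body.

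Sftpb had another layout. Its chain of 6 regions (chr6:72290455-72317048) was tallest over the printed start, at a mean fold of 27.1, and lowest inside the gene at 3.50. Its summed pileup was 6.90, 10.1, 6.30 and 8.71 scaled tags, near the median of all chains. A gap of 18288 bp parts it from a chain of 16 regions over Vamp5, Vamp8, Ggcx and 4 more genes (chr6:72335337-72416793), so that a gap limit of 25 kb joins them.

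Icam1, an adhesion molecule that is abundant on AT1 cells, lies in the AT1 chain with the most regions (16 over 62.5 kb, chr9:20975401-21037896, with S1pr2, Mrpl4, Icam4 and Icam5). The summed pileups of 16.3, 24.7, 17.5 and 22.0 scaled tags give it rank 3 of 478. A pair of regions stood far above the other 14. One lies between S1pr2 and Mrpl4 (chr9:20993039-20993882) and had folds of 32.4, 47.8, 34.5 and 38.6. The other lies inside Icam1 (chr9:21024976-21025705) and had 32.7, 45.7, 36.3 and 41.2. The region next in height had a mean fold of 14.2, and that at the near end of Icam1 only 5.05.

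**Figure D3:**
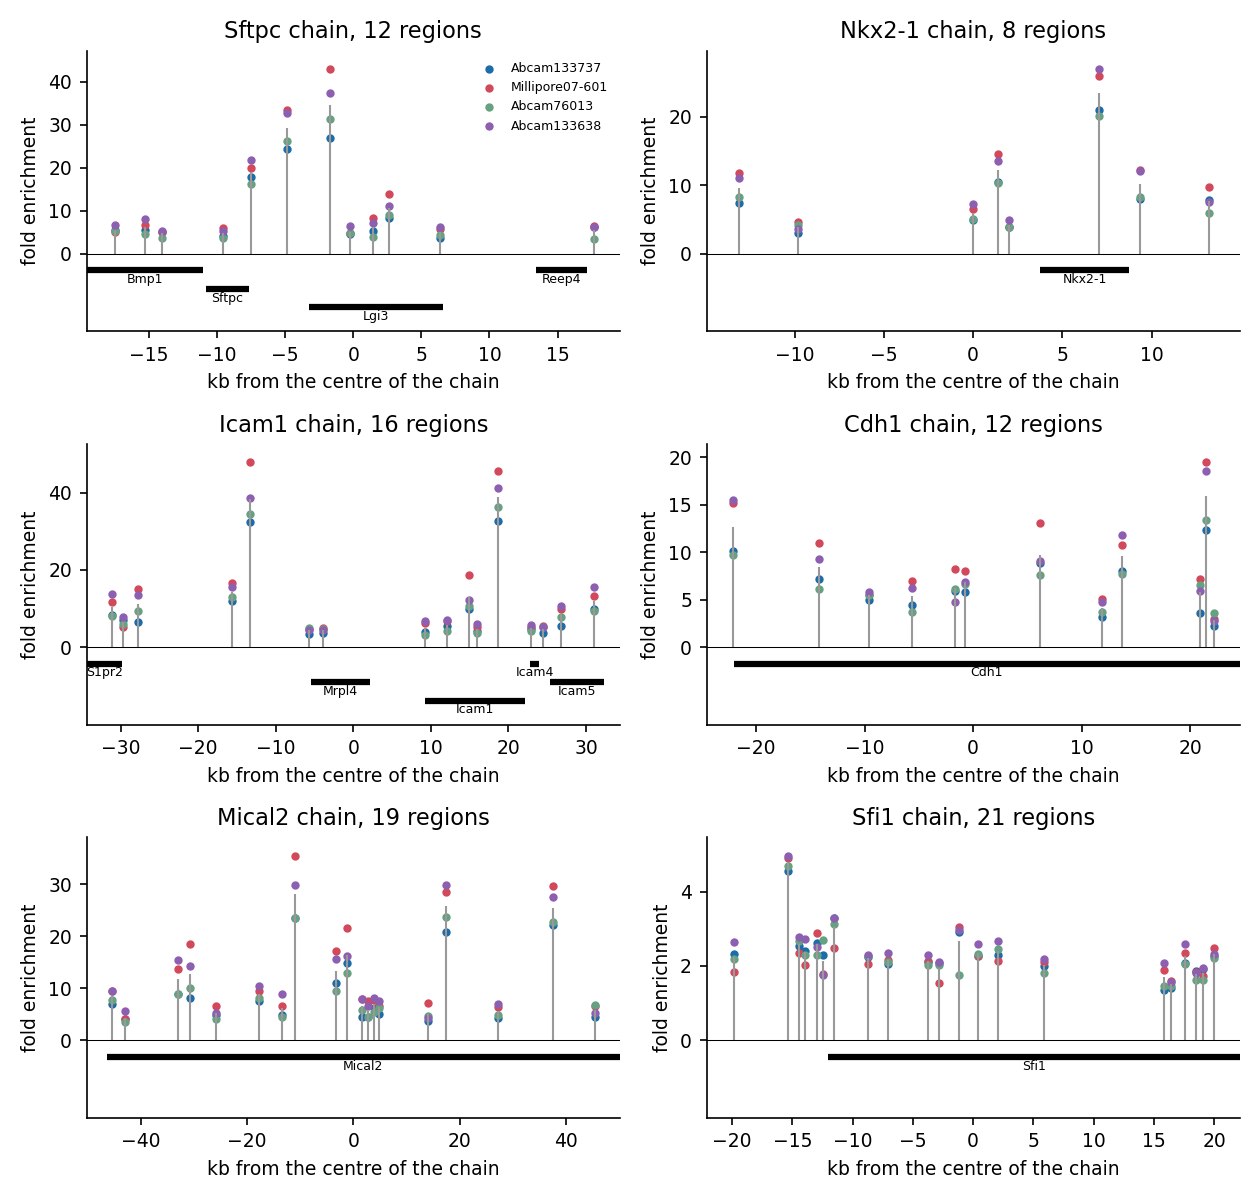
Fold enrichment (vertical axis) of each region of 6 chains by its distance in kb from the chain's centre (horizontal axis), with a grey line to the mean of the 4 antibodies, a coloured point per antibody and black bars for protein-coding genes. The Sftpc and Icam1 chains hold a few tall regions among low ones, while every region of the Sfi1 chain is under a fold of 5.

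Cldn18 and Akap5 follow among AT1 genes. Cldn18 has a chain of 8 regions (chr9:99702258-99730273), 6 inside the gene and 2 outside, with summed pileups of 6.10, 9.57, 6.03 and 8.62 scaled tags. The strongest of them is that over the printed start, which RefSeq places within the longest form of the gene, 7104 bp from its nearer end. Akap5, a scaffold for protein kinase A, shares a chain of 9 regions with Mthfd1 (chr12:76293417-76326996). There a single region inside Mthfd1 had folds of 30.9, 49.3, 33.5 and 40.3 and held 34.2% of the chain's summed pileup.

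The Nkx2-1 gene has a chain of its own. Its 8 regions span 27.2 kb (chr12:56514593-56541765), and the summed pileups of 6.79, 9.67, 6.89 and 8.84 scaled tags rank it 219 of 478, in the middle of the chains. The tallest region, inside the gene (chr12:56534904-56535744), had folds of 21.0, 26.0, 20.1 and 26.9. On one side 5 regions lie outside the gene as far as 16875 bp away, with mean folds between 3.92 and 12.3, and on the other 1 lies 4497 bp away with 7.75. A longer chain without a protein-coding gene stands on the same chromosome (chr12:56242758-56301929, 11 regions). It had a strongest region with folds of 25.5, 40.0, 24.6 and 33.0, and its nearest protein-coding gene was Mbip, 26.4 kb away.

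The Foxa2 and Elf5 chains had more regions and a higher summed pileup than that of Nkx2-1, although the Elf5 chain was shorter, at 24.6 kb. Elf5, an ETS family factor of the distal lung epithelium, holds all 10 regions of its chain inside the gene (chr2:103415392-103440006), with summed pileups of 9.13, 14.3, 9.40 and 12.8 scaled tags. Foxa2, a forkhead factor, has 9 regions over 41.6 kb (chr2:148005145-148046757) with 7.63, 11.4, 7.88 and 10.5. In the Foxa2 chain 8 regions lie outside the gene, and the tallest, 24556 bp from it, had folds of 19.7, 32.0, 20.5 and 25.6. The region over the printed Foxa2 start was lower in each antibody, at 7.41, 12.7, 9.34 and 12.9.

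Of the general epithelial list, Cldn3 and Cdh1 lay in the chains with the most regions, followed by Jup and the keratin pair with 9 each. Cldn3 shares 15 regions over 56.7 kb with Abhd11 (chr5:134965566-135022299), and 13 of them lie outside genes. Its summed pileups were 13.2, 18.5, 12.5 and 15.8 scaled tags, and the strongest region reached folds of 18.3, 22.4, 17.3 and 20.7. Cdh1, which encodes E-cadherin, had 12 regions (chr8:106603060-106647711), 11 inside the gene and 1 at its end. The strongest region there had folds of 12.4, 19.5, 13.4 and 18.5, and the summed pileups were 8.36, 12.9, 8.80 and 11.0. Jup, in a chain of 9 with P3h4 (chr11:100386650-100415027), had 7.22, 10.7, 7.45 and 9.25.

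In the YAP and TEAD list the chains were within or next to the gene. Vgll4, whose product competes with YAP for TEAD, holds 14 regions wholly inside it (chr6:114872248-114929819) with summed pileups of 8.29, 13.4, 9.19 and 12.4 scaled tags. Wwc1, an upstream member of the Hippo pathway, had 13 regions (chr11:35919900-35986259), 11 of them inside the gene, and 11.1, 15.1, 10.7 and 13.2. Amotl2, whose product binds YAP, had 7 regions (chr9:102714802-102735112), and its tallest was the one over the printed start.

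Airway and housekeeping genes lay in chains of 6 to 9 regions. Cbr2, a reductase of club cells, lies in a chain of 9 (chr11:120713582-120745042) whose strongest region, 12.5 kb from Cbr2, had folds of 37.1, 53.7, 39.8 and 44.8 and 42.8% of the summed pileup. Lypd2 lies in a chain of 8 (chr15:74709189-74735096) with 5.33, 7.41, 6.20 and 8.22 scaled tags. Rfx2, a factor of cilium formation, had 7 regions (chr17:56808607-56842517) and none of them with a mean fold above 10.1. Mcidas, which sets the multiciliated fate, had 6 with its neighbour Ccno (chr13:112981896-113001159) and sums of 4.17, 5.86, 4.30 and 6.05. Eef2 lies with Pias4 and Dapk3 in a chain of 8 (chr10:81167598-81192797), 4 of them at gene ends, with 7.45, 8.37, 7.49 and 9.31. Etv5, the factor counted in 3 lists, had 6 regions (chr16:22428091-22452557) and folds of 28.6, 40.4, 28.4 and 32.8 at its strongest.

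The chains with the most regions mostly lay over genes in none of the lists. Mical2, which encodes an actin-oxidising enzyme, holds 19 regions inside the gene (chr7:112226571-112317788, 91.2 kb). The summed pileups were 18.2 scaled tags with Abcam133737, 28.1 with Millipore07-601, 19.2 with Abcam76013 and 25.1 with Abcam133638, which is rank 2 of all chains, and its summed fold had rank 1. Another chain of 19 runs over Sufu, an inhibitor of hedgehog signalling, Trim8 and Arl3 (chr19:46445667-46532305) with 14.4, 21.0, 14.2 and 18.7. The chain at Mapkapk2, a kinase downstream of p38, and Dyrk3 had 17 regions (chr1:131081212-131139725) and 14.1, 21.3, 14.6 and 18.6.

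Chains over several genes followed. That over Tonsl, Foxh1, Ppp1r16a and 9 more genes had 15 regions, 8 of them at gene ends (chr15:76639425-76724852). The longest chain, 95.4 kb, ran over Sae1, a subunit of the enzyme that activates SUMO, with Zc3h4 and Tmem160 (chr7:16357586-16453028, 15 regions), and the summed pileups were 11.8, 17.5, 10.6 and 16.1. A chain of 14 over Zmynd10, Rassf1, Hyal2, Sema3b and 6 more genes (chr9:107547113-107613139) also had 8 regions at gene ends. In it Abcam133638 was the highest antibody with 14.9 scaled tags, against 10.2, 13.2 and 9.53 for the others in order.

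High summed pileup with fewer regions was found at 4 more genes. Kcnj15, a potassium channel gene, had 12 regions (chr16:95209209-95273505) and sums of 15.1, 24.1, 16.1 and 20.1 scaled tags, and 1 region outside the gene had folds of 37.8, 52.2, 40.3 and 45.9. Tns1, a focal adhesion protein, had 13 regions (chr1:73998386-74034997), Iqgap1, a scaffold of the actin cytoskeleton, 11 (chr7:80754033-80803695) and Myo1e, a class I myosin, 13 (chr9:70207094-70275786). In these last 3 the summit of every region lay inside the gene, although the Myo1e chain was not wholly inside it. Mical2, Tns1, Iqgap1 and Myo1e encode proteins that work on or with actin, but no list of such genes was counted.

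**Figure D4:**
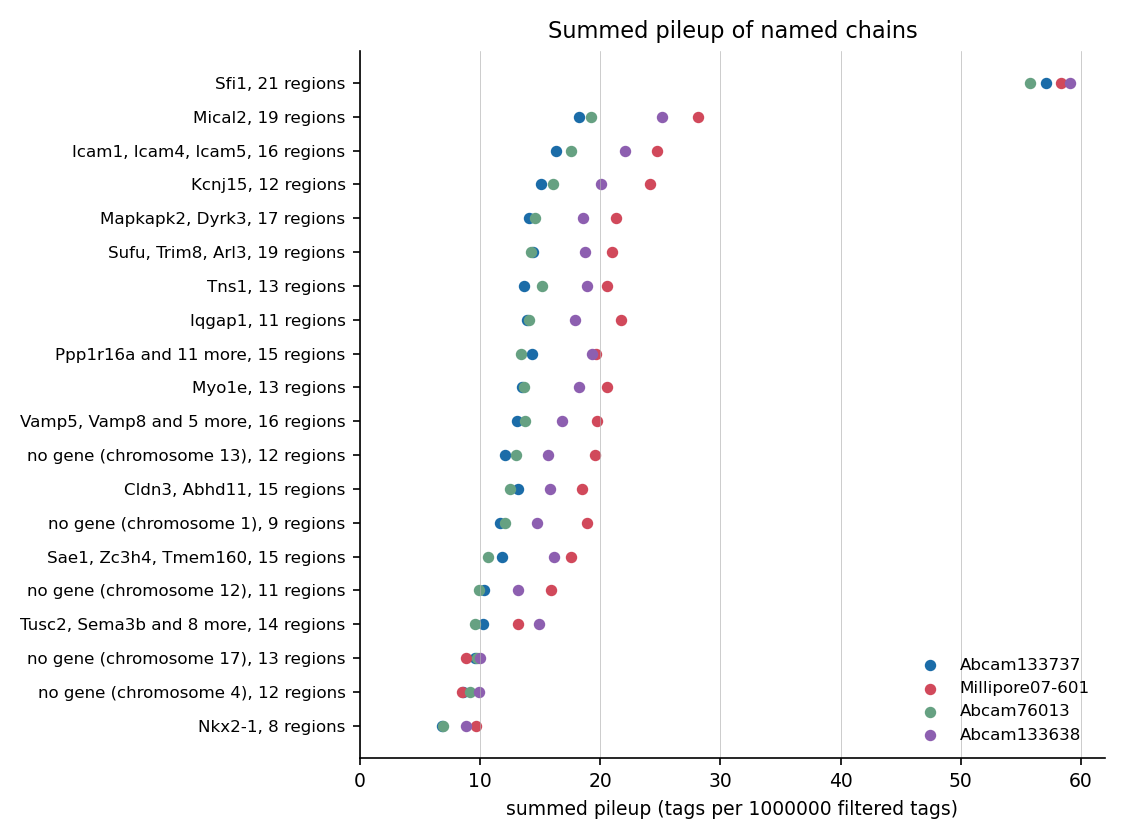
Summed pileup in scaled tags (horizontal axis) of 20 named chains, with a point per antibody. Millipore07-601 and Abcam133638 lie to the right of the other antibodies in most chains, the 4 antibodies nearly coincide in the chains on chromosomes 17 and 4 without a gene, and the Sfi1 chain stands alone between 55.8 and 59.1.

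Among chains without a protein-coding gene, that on chromosome 13 was the strongest of the 5 largest by pileup (chr13:37453212-37508607, 12 regions, 34.2 kb from Ly86). It overlaps 2 genes for long noncoding RNAs, and its sums were 12.1, 19.6, 13.0 and 15.6 scaled tags. A chain of 9 on chromosome 1 (chr1:76018691-76043829) lies 459 kb from the nearest protein-coding gene, Slc4a3. It had 11.7, 18.9, 12.0 and 14.7 scaled tags, and its median fold of 13.1 was above the 8.96 that marks the upper quartile of all chains. The other 2 of the 5, on chromosomes 17 and 4, differed in a way described next.

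A few chains stood apart in background and in antibody order, and they bear on the ranks by pileup. The local background of a peak follows from its pileup and fold, and for most chains it was close to the genome-wide value of 3.64 to 3.93 tags. The Sfi1 chain (chr11:3123773-3163996), first by number of regions (21) and by summed pileup, had a local background 14.0 times that value. Its sums of 57.1, 58.3, 55.8 and 59.1 scaled tags barely differed between antibodies, its median fold was 2.25, and by summed fold it ranked 406 of 478. Local backgrounds of 2.44, 2.36 and 2.29 times were found at Pisd, at chr16:3231590-3239795 and at Mroh2a with Hjurp. These 4 chains hold 40 regions.

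The ratio of the summed pileup of Millipore07-601 and Abcam133638 to that of Abcam133737 and Abcam76013 had a median of 1.41 over chains. It was under 1.1 in 4 chains of 53 regions: chr17:3006717-3038546 (13 regions, ratio 0.974), chr4:3050250-3084328 (12 regions, 1.04), the Sfi1 chain (1.04) and chr16:3231590-3239795 (1.06). These are also the only 4 chains that start before 3.3 Mb on their chromosome, and 2 of them are among the 4 with the high background. The limits of 2 times and of 1.1 were chosen after the data were seen. Without the chains of high background the ratio of median fold between members and others was 1.05, as it was without those of low antibody ratio. No AT1 or AT2 list gene lies in any of these chains. What part mapping or the input plays in them was not tested.

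**Figure D5:**
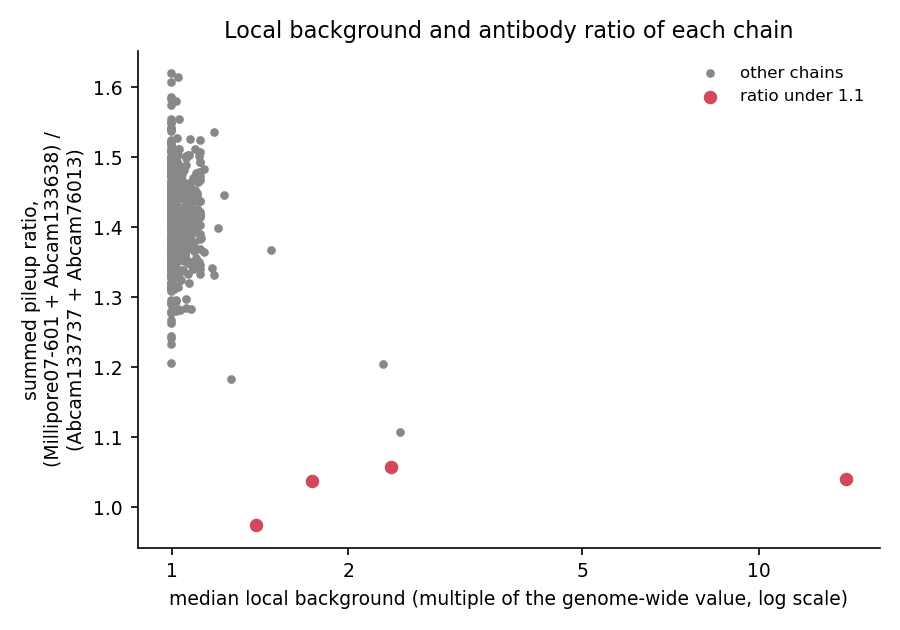
Median local background of each of the 478 chains as a multiple of the genome-wide value (horizontal log axis) against the ratio of summed pileup of the 2 antibodies with longer lists to the 2 with shorter lists (vertical axis), with chains of a ratio under 1.1 in red. Most chains lie at a background near 1 and a ratio near 1.41, and the Sfi1 chain lies at 14.0 and 1.04.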

How the data were processed

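The 4 antibody peak lists were analysed, and the input entered through the authors' peak calling only. MACS 2.1.2 was run by the authors on each antibody against the input, per the file headers (q cutoff 0.05, effective genome size 1.87 Gb, 1 tag kept per position, the smaller library scaled towards the larger). The submitters' processing notes name FastQC, Trimmomatic, Bowtie, SAMtools, MACS2, deepTools and build mm10. The deposited pileup is a signal in tags at the summit, the deposited fold enrichment is a ratio of pileup to local background, and the deposited p- and q-values are on a −log10 scale. All are the authors' values.

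For each region and antibody the highest pileup and fold among its peaks were used, pileup was scaled to 1000000 filtered tags, and the mean was taken over the 4 antibodies. Summits were placed against RefSeq gene spans (GRCm38.p6), and genes overlapped a chain by at least 1 bp. Gene entries that end before the first assembled base of a chromosome other than Y were left out, since they carry scaffold coordinates. Other entries in scaffold coordinates may remain. With 1 library per antibody no test across libraries was made. The members and the gene lists were chosen with earlier results of these data known. Chains named with values are the 10 with the most regions, the 10 with the highest summed pileup, the 5 longest, the 5 largest without a protein-coding gene and that of Nkx2-1. Of each list up to 3 genes, those in the largest chains, have full values. Sftpb, the microRNA, Slc26a9 and Tnrc18 chains were added after their values were seen. Chaining was checked on simulated data. Gap limit, chain size, peak strength, overlap rule and antibodies were varied. Python 3.11.15, pandas 2.3.3, numpy 2.4.6, scipy 1.17.1 and matplotlib 3.10.9 were used.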

Additional observations from a re-analysis of the deposited data

How the results depend on the processing

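No paired analysis was possible because each antibody has 1 library, and its replicate number only names it. The number of members and chains followed the rule: 716 in 104 with a gap of 5 kb, 9302 in 1042 with 25 kb, 7932 in 1452 with at least 4 regions and 987 in 83 with at least 10. It was 2255 in 306 at a −log10 q of at least 5, 620 in 90 at a fold of at least 5, 30 in 5 from the 10000 strongest peaks of each list, and 7206 in 889 with 3 of 4 antibodies. Leaving out 1 antibody gave 3932 to 5186 regions in 503 to 653 chains.

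The ratio of median fold stayed above 1: 1.05 with at least 4 regions, 1.00477 with at least 10, 1.06181 at that q, 1.09 at that fold, 1.0669 in the 10000 strongest, 1.05524 with 3 of 4 antibodies and 1.03 to 1.05 (1.03132 to 1.05498) without 1 antibody. The 2 alternatives added after seeing the data gave 1.04974 without the chains of high local background and 1.05447 without those of low antibody ratio.

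The share near gene ends was 19.5% with a gap of 25 kb, 12.9% at a fold of at least 5, 0% in the 10000 strongest, 25.4% within 2 kb and 17.6% to 17.9% without 1 antibody. AT1 genes in chains numbered 2 with a gap of 5 kb, 11 with 25 kb, 14 with at least 4 regions, 1 with at least 10, 2 at that q, 0 at that fold, 0 in the 10000 strongest, 9 with 3 of 4 antibodies and 7 to 8 without 1 antibody. AT2 genes numbered 2 with 5 kb, 18 with 25 kb, 17 with at least 4 regions, 16 with 3 of 4 antibodies, 5 with at least 10 regions, 7 at that q, 1 at that fold, 0 in the 10000 strongest and 11 to 14 without 1 antibody. The fewer or more regions follow from each rule's construction. The share of all protein-coding genes in chains was not counted under these altered rules. The 3.58% belongs to the main rule only, so these AT1 and AT2 counts have no background beside them. A reciprocal overlap of 50% moved none of these values beyond its limit. Of the 10 chains highest by pileup, 7 were also among the 10 highest by fold. Small peaks can depend on depth, which ran from 43031331 to 46547989 filtered tags. Its effect on the chains was not tested.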

Other observations

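The chain with the most protein-coding genes, chosen after its values were seen, runs over a row of interferon genes. It has 12 regions and overlaps 14 genes, Ifnz and 13 predicted genes, 13 of which lie wholly within it (chr4:88757431-88806247, 48.8 kb). Of its regions 11 lie within 1 kb of a gene end. The summed pileups were 6.47 scaled tags with Abcam133737, 7.51 with Millipore07-601, 6.13 with Abcam76013 and 8.62 with Abcam133638, and the strongest region had a mean fold of only 7.85. The weakest had 4.91, so the regions were of nearly even height. Its local background was 1.02 times the genome-wide value. These genes are near-identical copies, so how reads were divided among them is uncertain, and the values are given without a reading.

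By pileup per region the Sfi1 chain was highest at 2.74 scaled tags, followed by a chain of 7 regions without a protein-coding gene (chr2:75761763-75782313, 50.1 kb from Agps at its strongest region) at 2.26. Next came 6 regions inside Dgkg, a diacylglycerol kinase gene, at 2.24 (chr16:22536377-22549080) and 6 regions without a protein-coding gene at 2.20 (chr5:74136250-74161879). In the first of these gene-less chains every region had a mean fold of at least 9.01, and the strongest had folds of 33.1, 42.1, 30.9 and 38.6. The strongest region in Dgkg had 40.8, 56.7, 42.2 and 48.5. Sdc1, which encodes the proteoglycan syndecan of epithelial cells, stood just outside the 10 highest by summed pileup, at rank 11 with 13 regions (chr12:8764686-8814924) and 13.3, 20.3, 13.6 and 17.8 scaled tags. All of these chains were chosen after their values were seen.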
